A study of Danio rerio with 9 samples.

Results

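In zebrafish larvae, 56 of 36492 array probes (0.153%) that were well above background on all 9 arrays were raised by 12-h light in WT animals but not in animals that lacked the clock genes zPer2 and zCry1a, with or without zCry2a. A probe was a member when its level after 12-h light was at least 0.7 (log2) above its level in darkness in WT larvae, and at most 0.2 above it in DKO and in TKO larvae. The value of 0.7 is a 1.62-fold rise and 0.2 is a 1.15-fold rise. aanat2, the pineal enzyme of melatonin synthesis, was to be left out by name, and it did not meet the rule. The members were thus chosen by the values of the dark and 12-h light arrays, so those values are given as a description, without a test. The largest WT change was that of zdhhc20a, a palmitoyltransferase, and the brightest members were ifi27.1, of an interferon-inducible family, and the small heat shock proteins hspb9l and hspb9. Most of the other members were dim probes, and no further probe of a member's gene reached the WT limit.

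DKO larvae carried knockouts of zPer2 and zCry1a made with TALENs, TKO larvae carried these and a knockout of zCry2a made with CRISPR/Cas9, and WT larvae carried none. All larvae were kept in constant darkness from fertilization, and at 6 dpf they were given 3-h light, 12-h light or no light. By the study's description of the DKO experiment, larvae were taken 12 h after light onset, so those given 3-h light were then back in darkness. RNA of the whole body was measured on 9 Agilent 1-colour arrays, 1 for each genotype and lighting, so no single difference has a replicate check. The number of larvae behind each array is not given in the sources used here.

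Light sets the circadian clock of zebrafish directly, in the cells of most organs, and not by way of the eye alone. Period and Cryptochrome proteins are repressors of the CLOCK and BMAL transcription factors, and zPer2 and zCry1a are themselves induced by light. Light acts on these genes through promoter elements that PAR-bZIP factors bind, and it also induces genes of DNA repair and of the stress response.

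Each array held 43603 probes, of which 85.9 to 89.8% of spots were well above background. A level is given as log2 of the signal, set relative to the array's 75th percentile, so a level of 0 is a signal of 547 to 636 units. All 24 organ markers that had a probe, for 9 organs of the larva such as muscle, liver, lens and skin, were well above background on all 9 arrays. Each genotype lay on a slide of its own, so genotype and slide cannot be told apart. Darkness was at position 1 and 3-h light at position 2 of each slide, and 12-h light was at position 4 in DKO and at position 3 in TKO and WT, so lighting and position cannot be told apart either. The dark TKO array stood apart, with 1801 probes at least 2-fold from the mean of the other genotypes, against 432 for dark DKO and 954 for dark WT. Counted the same way, the WT array stood furthest from the others under light, with 359 probes for DKO, 278 for TKO and 1007 for WT at 12-h light, and 222, 221 and 736 at 3-h light. The part of these array differences in the members' pattern was not tested. The per2 probe that was well above background on all 9 arrays rose 3.82 at 12-h light in DKO, 4.56 in TKO and 3.64 in WT larvae, so this mRNA level does not check the genotype labels. Both cry1a probes were lower in the knockouts in darkness, at -2.84 in DKO, -3.0 in TKO and -1.57 in WT larvae on the dimmer probe and at 0.43, 0.36 and 1.28 on the brighter one, and they were lower at 12-h light as well.

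At 12-h light the median change of the members was -0.04 in DKO, -0.16 in TKO and 0.82 in WT larvae, against 0.04, 0.15 and 0.06 over all probes. Light for 12 h raised 1123 probes (3.08%) by at least 0.7 in DKO, 3089 (8.46%) in TKO and 1060 (2.9%) in WT larvae. Of the 1060 in WT, 115 stayed at or under 0.2 in DKO, 189 did so in TKO and 56 in both, while 411 were raised by at least 0.7 in all genotypes. In whole-body RNA, a change in the number of cells of a type and a change in RNA per cell cannot be told apart. Of the 56 members, 10 rose by at least 1 in WT larvae and 24 by less than 0.8. Both knockouts were below their dark level for 19 members (all probes, 28.5%), and for 7 the level of a knockout was lower by 0.7 or more (all probes, 12.3%). Nothing is read from these counts, since the rule used the same values.

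**Figure D1:**
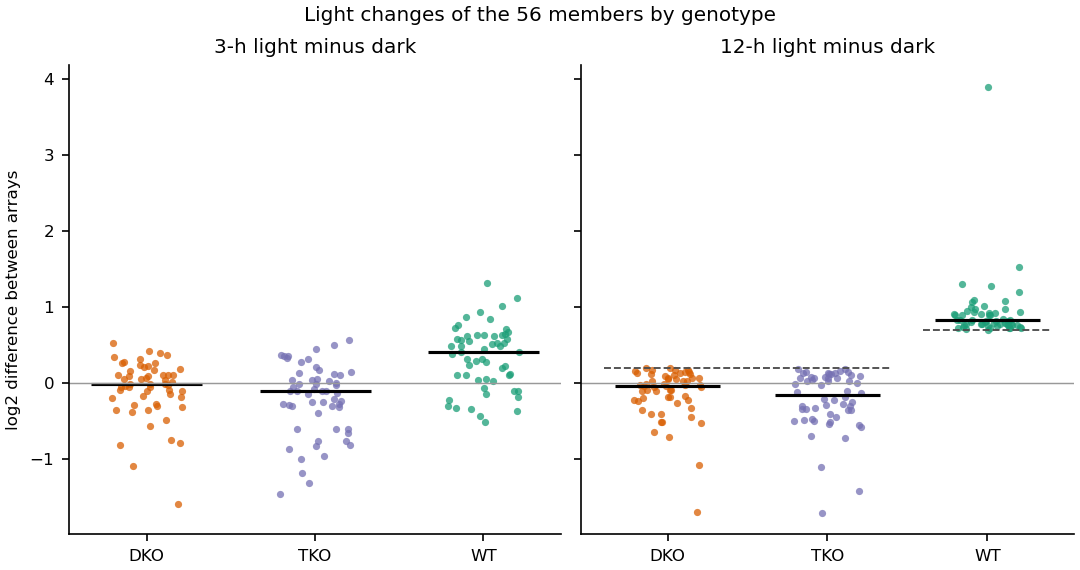
Change with 3-h light (left) and 12-h light (right) against darkness of the 56 members in DKO, TKO and WT larvae, in log2. Each point is a probe, black lines are medians and dashed lines are the limits of the rule, which fix the separation on the right. At 3-h light, where no limit applies, the WT median was 0.41 and the WT points overlapped those of both knockouts. The 3-h light changes share their dark arrays with the rule, so the left panel is not free of it.

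Probes just inside and just outside the limits had nearly the same values. The members of the lowest WT change were A_15_P403825, A_15_P158771 and A_15_P194706 at 0.701, 0.713 and 0.715. The nearest probes left out were asb13a.2, A_15_P208486 and A_15_P761596 at 0.699, 0.698 and 0.698. On the side of the knockouts, tmbim1a, A_15_P156616 and A_15_P760651 were kept with higher knockout changes of 0.195, 0.19 and 0.183, while A_15_P279761, A_15_P762891 and znf710a were left out with 0.205, 0.212 and 0.213. These steps are far smaller than the spread of a log2 ratio between spots of a probe on the same arrays, which was 0.152 over 31 probes spotted more than once.

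Most members were dim. Their mean level over the 9 arrays had a median of -4.98, against -1.65 for all probes, and 42 of 56 lay under -4, against 17.2% of all probes. In signal units, the median member read 17.9 in DKO, 18.5 in TKO and 26.2 in WT larvae at 12-h light, against 15.7 in WT larvae in darkness. The rule was met by 0.669% of probes with a level under -4 and by 0.04% of those at -2 or more. Among probes under -4 the spread of a ratio between spots was 0.242 (6 probes), against 0.096 at -2 or more (12 probes). The error of the WT 12-h change was combined from the errors that the scanner software assigned on the dark and 12-h light arrays. It was 0.2 to 0.37 over the members, with a median of 0.2 over members at -2 or more and over all probes. All 56 changes were at 2 errors or more and 32 at 3 or more. The rule's WT limit of 0.7 nearly fixes the first count and favours the second, so nothing is read from them. The scanner error is the software's estimate for a spot and its background, and leaves out differences between larvae.

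**Figure D2:**
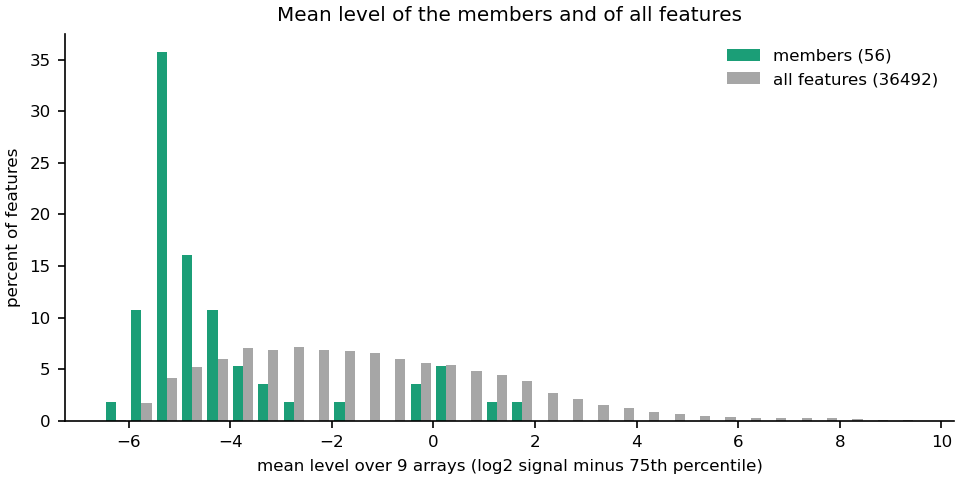
Distribution of the mean level over 9 arrays, in steps of 0.5, for the 56 members and for all 36492 probes, as percent of each. The members lie mostly under -4, with a smaller group of 8 at -2 or more.

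The small heat shock proteins were the one family with several members. These are chaperones with an alpha-crystallin domain that hold unfolding proteins in solution. With values given in the order darkness, 3-h and 12-h light, the level of hspb9 was 1.01, 0.20 and 0.66 in DKO larvae. It was 1.14, 0.27 and 0.85 in TKO larvae and -0.47, -0.36 and 0.83 in WT larvae. So the WT array in darkness and the WT array at 3-h light were the lowest, and 12-h light brought WT to within the range of both knockouts. The rise in WT was 1.3 ± 0.2 (scanner error). The near relative hspb9l had levels of 1.44, 1.16 and 1.49 in DKO larvae, 2.13, 1.17 and 1.69 in TKO larvae and 1.0, 1.02 and 1.82 in WT larvae. Its 3-h light levels differed little between genotypes, and its dark level was lowest in WT. Whether the probes of hspb9 and hspb9l tell these genes apart was not tested.

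The third member of the family, hspb11, was dim, with -4.91, -4.95 and -5.0 in DKO, -5.19, -5.24 and -5.17 in TKO and -5.98, -5.42 and -5.04 in WT larvae. Its knockout levels stayed within a narrow band under all lightings, and WT joined that band at 12-h light. Of 94 probes for 37 heat shock and stress genes, 11 were raised by at least 0.7 at 12-h light in DKO, 5 in TKO and 7 in WT larvae, and 2 of the 94 were members (hspb9 and hspb11). That list does not hold hspb9l, which is therefore in none of these counts. The raised WT probes beside these were chac1, hmox1a, hmox1b and trib3, genes of glutathione breakdown, heme breakdown and the unfolded protein response, which were at least 0.63 above darkness in both knockouts as well. Of the other small heat shock proteins on the list, hspb8 came near the pattern on 1 of 2 probes, with changes of -0.15 in DKO, -0.15 in TKO and 0.64 in WT larvae, just under the limit. Its brighter probe changed by 0.14 in DKO, 0.44 in TKO and 0.12 in WT larvae. On the brighter of its 2 probes, hspb1 changed by -0.75 in DKO, -0.95 in TKO and -0.52 in WT larvae. The inducible chaperone hsp70l changed by 1.02 in DKO, -0.17 in TKO and -0.81 in WT larvae on its first probe.

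The gene ifi27.1, whose mammalian relatives are induced by interferon in the antiviral response, was the brightest member. Its level was 1.18, 0.89 and 1.07 in DKO larvae under darkness, 3-h and 12-h light, 2.57, 1.39 and 2.24 in TKO larvae and 1.39, 1.05 and 2.36 in WT larvae. All genotypes were lowest at 3-h light. At 12-h light WT rose above its dark level, while the TKO change from darkness was -0.33. The hexose-binding lectin hbl4, a sugar-binding protein, had -1.66, -1.69 and -1.89 in DKO, -1.08, -1.67 and -1.44 in TKO and -2.20, -1.99 and -1.39 in WT larvae. A second hbl4 probe gave -0.03 in DKO, -0.32 in TKO and 0.67 in WT larvae at 12-h light, just under the limit. The lipoxygenase alox5b.2, of the family that starts leukotriene synthesis, was dim with -5.63, -5.83 and -5.67 in DKO, -5.88, -5.31 and -5.78 in TKO and -5.76, -5.93 and -4.83 in WT larvae. Only its WT 12-h light array stood out, and the other alox5b.2 probes were not well above background on any array. In 67 probes of the neutrophil, macrophage and inflammation list, 7 rose by at least 0.7 in DKO, 17 in TKO and 5 in WT. None of the 67 was a member (all probes, 0.153%).

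Bright members without a gene symbol numbered 4. A_15_P403290 had levels of 0.18, 0.13 and 0.09 in DKO, -0.11, 0.06 and 0.01 in TKO and -1.17, 0.15 and 0.10 in WT larvae. The other 8 arrays lay between -0.11 and 0.18, and the WT dark array alone was low, so the WT level at 3-h light was already that at 12-h light. A_15_P681666 had 0.50, -0.59 and -0.13 in DKO, 1.13, 0.12 and 0.62 in TKO and -0.46, -0.22 and 0.47 in WT larvae. A_15_P683191 had -0.16, -0.36 and -0.40 in DKO, 1.21, -0.25 and 0.71 in TKO and -0.76, -1.07 and 0.15 in WT larvae. For both, the dark TKO array was the highest of the 9. A_15_P187211 had 1.4, -0.20 and -0.30 in DKO, 1.04, 0.28 and 1.04 in TKO and -0.20, -0.30 and 0.55 in WT larvae, so its dark DKO level stood alone above both lit DKO levels.

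**Figure D3:**
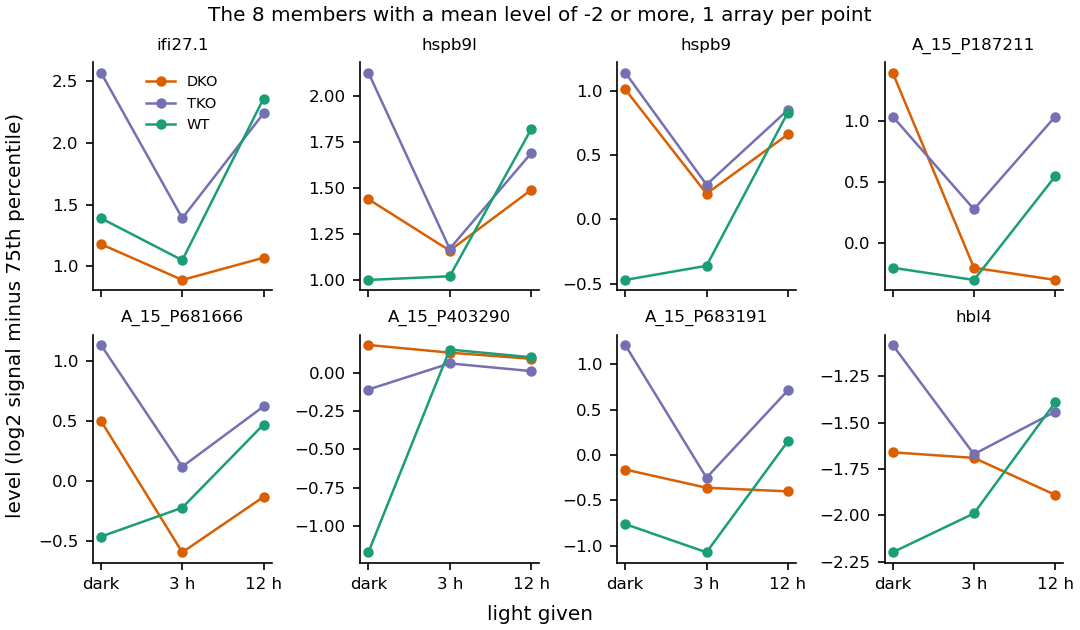
Levels (log2 signal minus the 75th percentile) of the 8 members with a mean level of -2 or more, by light given, for DKO, TKO and WT larvae, 1 array per point. Vertical scales differ between panels. In 7 of 8 panels WT is the lowest genotype in darkness, and TKO falls at 3-h light in 7 of 8. The rule used the dark arrays, so nothing is read from these counts.

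In all 8 bright members the dark TKO level was at least 1 above the dark WT level, which 5.8% of all probes of that brightness shared. Nothing is read from this count, because the rule used the dark arrays and the split by brightness was made after seeing the data. Because the dark TKO array stood apart, the dark DKO array was also used as the reference of TKO at 12-h light, a choice made after seeing the earlier results. Then 45 of 56 members still met the rule, and of the 8 bright ones hspb9, A_15_P681666, A_15_P403290 and A_15_P187211 did, while ifi27.1, hspb9l, hbl4 and A_15_P683191 did not. For ifi27.1 the TKO change became 1.06 by that reference.

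The largest WT change was that of zdhhc20a, which attaches palmitate to cysteines of membrane proteins. Its signal was 42.6, 42.7 and 34 units in DKO, 29.6, 37.9 and 35.8 in TKO and 31.9, 26.3 and 436 in WT larvae. The WT array at 12-h light stood alone at 3.9 ± 0.23 (log2, scanner error) above darkness, and the other 8 arrays lay between 26.3 and 42.7 units. The array had 1 probe for this gene, so no second probe could be compared. In ankk1, bmpr1ba and lnpep the changes were smaller. The kinase ankk1 had levels of -4.87, -4.92 and -5.28 in DKO, -4.91, -5.03 and -4.83 in TKO and -5.77, -4.89 and -4.77 in WT larvae, where the WT dark array alone was low. The BMP receptor bmpr1ba had -5.96, -6.53 and -6.04 in DKO, -5.37, -5.77 and -5.78 in TKO and -6.05, -5.77 and -5.33 in WT larvae. The aminopeptidase lnpep, which in mammals cleaves the hormones oxytocin and vasopressin, had -4.97, -5.29 and -5.02 in DKO, -4.74, -5.55 and -5.31 in TKO and -5.70, -5.79 and -4.96 in WT larvae. For lnpep the WT arrays in darkness and at 3-h light were the lowest of the 9. For bmpr1ba in darkness, WT was slightly below DKO, and TKO was above both.

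Some members have roles in chromosomes or cell division. The lists of mitosis (88 probes) and DNA replication (95 probes) held no member, where 0.153% of all probes were members. The condensin subunit smc2, which compacts mitotic chromosomes, had levels of -3.71, -4.50 and -4.79 in DKO, -4.06, -4.72 and -4.62 in TKO and -4.05, -4.42 and -2.86 in WT larvae. Levels dropped with 3-h light in all genotypes, and the WT array at 12-h light alone was high. The centrosome protein cep57 had -5.34, -5.37 and -5.54 in DKO, -4.88, -5.64 and -5.41 in TKO and -5.94, -5.89 and -5.06 in WT larvae. Its 3 other probes changed by 0.07, 0.2 and 0.02 at 12-h light in WT larvae, where the member probe changed by 0.89. sycp3, of the synaptonemal complex that pairs chromosomes in meiosis, rose 0.9 in WT larvae but also lay at -4.59 and -4.48 on the dark and 12-h light arrays of TKO larvae. Members linked to transcription or chromatin were the homeobox gene homezb, the lysine methyltransferase smyd2a and vps72a, a subunit of complexes that handle the histone variant H2A.Z.

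For homezb the levels were -5.88, -6.37 and -6.05 in DKO, -6.01, -5.89 and -6.75 in TKO and -6.22, -5.21 and -5.25 in WT larvae, so both lit WT arrays were above all others. For smyd2a they were -5.49, -5.25 and -6.0 in DKO, -5.57, -5.27 and -5.60 in TKO and -5.55, -5.26 and -4.64 in WT larvae. The other smyd2a probes, which were brighter, changed by 0.03 and 0.02 at 12-h light in WT larvae, where the member probe changed by 0.91. The uncharacterised gene zgc:110216 had -5.12, -5.29 and -5.13 in DKO, -5.08, -5.33 and -5.29 in TKO and -5.28, -5.72 and -4.27 in WT larvae. In both, the WT array at 12-h light was the highest. In contrast, vps72a stayed lower in WT than in the knockouts throughout. It had -3.66, -3.75 and -3.51 in DKO, -4.02, -4.14 and -3.99 in TKO and -5.49, -4.78 and -4.78 in WT larvae.

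**Figure D4:**
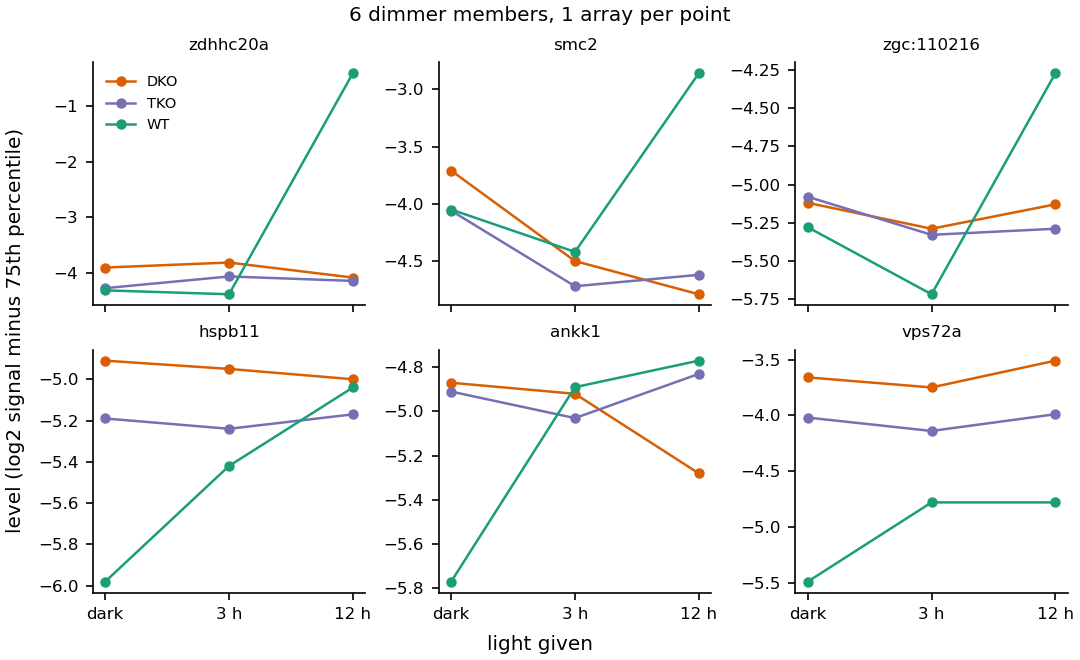
Levels (log2 signal minus the 75th percentile) of 6 dimmer members by light given, for DKO, TKO and WT larvae, 1 array per point. Vertical scales differ between panels. The upper panels show a lone high WT array at 12-h light, and the lower panels a low WT array in darkness.

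The remaining members with a symbol had WT changes between 0.75 and 0.92. They were gtpbp1l (0.92), a GTP-binding protein, the myotubularin-related mtmr12 (0.9), and ggact.1 (0.83), an enzyme that breaks down remnants of crosslinked proteins. bmp15 (0.8), a growth factor of the oocyte, was the dimmest member, with a mean level of -6.02. dhx34 (0.79), a helicase of nonsense-mediated mRNA decay, eef1a1l3 (0.79), of the translation elongation factor family, and rtkna (0.77) followed. tmbim1a (0.77), of the BAX inhibitor family, btg3 (0.76), an antiproliferative gene, and letmd1 (0.75), a mitochondrial protein, completed them. In all, 27 members had a symbol, each of a different gene, and 29 had none.

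The members were also split by their dark and 12-h light levels, which the rule used, so the split is a description. In darkness the median difference from WT was 0.42 for DKO and 0.50 for TKO, against -0.01 and -0.12 over all probes. The WT dark level was below both knockouts for 39 of 56 members, against 25.5% of all probes, and nothing is read from this count because the rule used the dark arrays. For 21 of 56 (all probes, 4.07%) the WT dark level was lower than both knockouts by at least 0.5, and for 23 of 56 (all probes, 3.35%) the WT 12-h light level was higher than both by at least 0.5. Only A_15_P770581 met both, and 13 members met neither. The members with the low WT dark level included hspb9, hspb11, hbl4, vps72a, letmd1, eef1a1l3, ankk1, dhx34, lnpep, gtpbp1l and cep57. Those with the high WT 12-h light level included zdhhc20a, smc2, ggact.1, btg3, zgc:110216, mtmr12, smyd2a, alox5b.2 and homezb.

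No limit of the rule applied to 3-h light. There the change of the members had a median of -0.02 in DKO, -0.11 in TKO and 0.41 in WT larvae. Over all probes the medians were 0.04, 0.15 and 0.07. These changes share the dark arrays with the rule and are a description. In WT larvae 9 of 56 members rose by at least 0.7 at 3-h light (1.38% of all probes), and 44 of 56 were above darkness (61.0% of all probes). The 9 were A_15_P403290 (1.32), A_15_P264006 (1.12), homezb (1.01), A_15_P710031 (0.93), ankk1 (0.87), dhx34 (0.84), A_15_P197216 (0.76), A_15_P373580 (0.72) and vps72a (0.71). For 39 members the WT level at 3-h light lay between the dark and 12-h light levels, for 5 it was at or above the 12-h level and for 12 at or below darkness. No member rose by 0.7 in a knockout at 3-h light, where 0.959% of all probes did in DKO and 6.57% in TKO, while 6 of 56 were lower by 0.5 or more in DKO (all probes, 3.19%) and 14 of 56 in TKO (all probes, 14.8%).

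The limits of the rule did not use the 3-h light arrays, but its filter did, since members had to be well above background there too. On these arrays both knockouts together were compared with WT by limma, a linear model fitted over all probes. This model has 1 residual degree of freedom, which comes from the difference between the DKO and TKO arrays, of different genotypes on different slides. No spread was measured in WT, whose lone array is assumed to vary like them, so the p-values below do not measure the spread between larvae. The median difference of the members, knockouts minus WT, was 0.10, against -0.04 over all probes. With Benjamini-Hochberg adjustment 0 members were called, and 0 of 36492 probes (0.0%) were. The unadjusted p was under 0.05 for 22 of 56 members, against 23.1% of all probes, and of these 14 were higher in the knockouts (all probes, 11.4%) and 8 lower (all probes, 11.7%). The smallest adjusted p by limma among the members was 0.096. With limma's trend and robust options 2930 probes (8.03%) were called, with 2 members among them, hspb9 (adjusted p = 0.0104) and A_15_P683191 (adjusted p = 0.00651). Neither was called with the default options. Over all settings tried the adjusted p by limma ran between 0.0104 and 0.187 for hspb9 and between 0.00651 and 0.186 for A_15_P683191.

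For 22 members, 38 other probes of the same gene or transcript were well above background on all 9 arrays. None of the 38 rose by 0.7 in WT larvae at 12-h light, 4 rose by at least 0.35 and 6 fell by 0.5 or more. Their median WT change was 0.04, against 0.80 for the member probes, and 32 of 38 were brighter than the member. The member probes were chosen for a high WT change and the others were not. The 3 further probes of smc2 changed by -0.98, -1.07 and -0.65 in WT larvae, where the member probe had 1.19. In DKO larvae they changed by -0.99, -0.96 and -1.66. The mitosis list of 88 probes had medians of -1.0 in DKO, -0.69 in TKO and -0.88 in WT larvae. For zgc:110216 the other probes changed by -1.10 and -1.27 in WT larvae. Of the probes above background, hbl4 (0.67) and lnpep (0.59 on 1 of 4) came closest to the WT change of their member. That lnpep probe also rose 0.42 in TKO larvae, over the limit of 0.2. The brightest lnpep probe rose 0.37 in DKO, 0.52 in TKO and 0.28 in WT larvae.

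**Figure D5:**
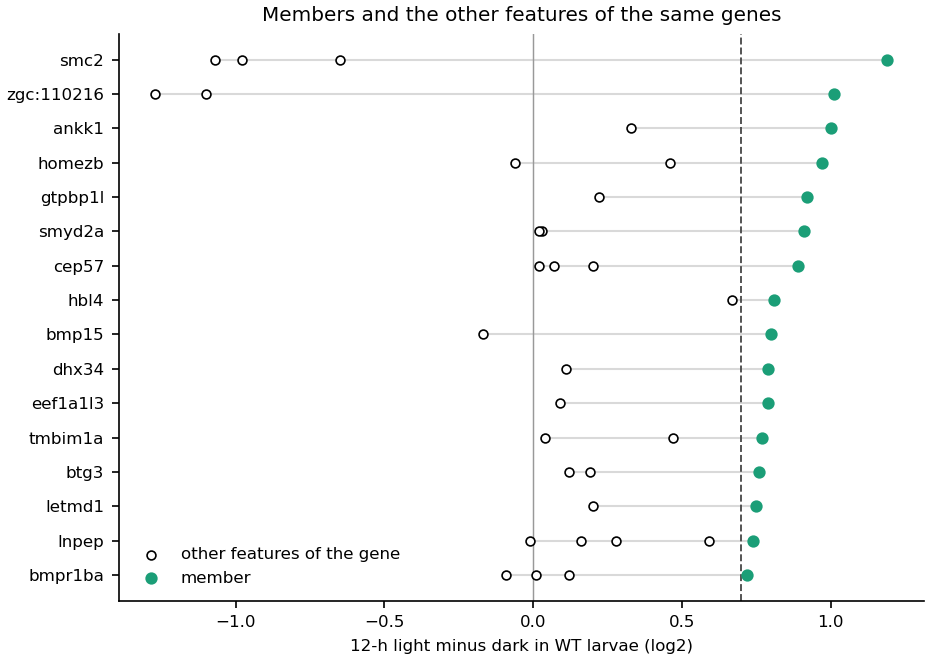
Change with 12-h light against darkness in WT larvae (log2) for the member probe (filled) and the 30 other probes (open) of the 16 genes with a symbol that had any well above background on all 9 arrays. The dashed line is the limit of 0.7, and all open points lie left of it.

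The list of clock and light genes held no member. Of 76 probes for 44 genes of this list, 25 rose by at least 0.7 in DKO, 25 in TKO and 21 in WT larvae at 12-h light, 15 of them in all genotypes, and no member was among them. The pineal gland and melatonin list had 24 probes, with 0 raised in DKO, 1 in TKO and 1 in WT larvae, and no member. Besides the 2 heat shock genes, none of 25 lists for organs, cell types and pathways held a member. Nothing is read from the lists without a member, since only 0.153% of all probes met the rule.

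The same rule was also applied with each knockout in the place of WT. Each genotype was set against its own dark array, and that of TKO stood apart from the others. The part of that array in the TKO counts was not tested. Light for 12 h raised 58 probes in DKO alone and 419 in TKO alone, against 56 in WT alone. In the opposite direction, 52 probes were lowered in DKO alone, 850 in TKO alone and 49 in WT alone. Probes under a level of -4 were 55.2% of those raised in DKO alone, 30.3% in TKO alone and 75% in WT alone. At 3-h light the counts of raised probes were 42 in DKO alone, 420 in TKO alone and 53 in WT alone, and 6 of these 53 were members at 12-h light, namely A_15_P264006, A_15_P403290, ankk1, dhx34, homezb and vps72a.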

How the data were processed

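The authors labelled total RNA with Cy3, and deposited for each spot the intensity that Agilent Feature Extraction 11.5.1.1 gives after background subtraction and detrending, beside that software's error, the median spot and background intensities, and flags. The authors' table of the series holds the same intensities multiplied by 1 constant per array. How it was chosen is not given in the sources used here. The authors' 0 or 1 flags mark other properties of a spot, such as being well above background.

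From the deposited intensities, log2 values were taken, minus each array's 75th percentile over spots that are not controls, and spots of a probe were averaged. Irregular spots (1 to 8 per array) were left out, and no spot was saturated. The number of arrays, 1 per group, limits the precision. Probes had to be well above background on all 9 arrays. Of 43603 probes, 26094 were paired with a symbol through RefSeq accessions of assembly GRCz12tu, and no sequences or coordinates are printed.

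The members and lists were chosen with earlier results of these data known. All 9 values are given for the 14 members with a symbol that have the largest gap between the WT change and the higher knockout change, and for members of the lists. The other genes whose values are printed were chosen after these were seen. limma 3.58.1 in R 4.3.3 tested the 3-h light arrays, with an adjusted p under 0.05 as the threshold. On simulated data for 36492 probes, it recovered 12 of 100 probes changed by 1 (log2) and 92 of 100 changed by 2, with 6 false calls. The simulation drew independent normal noise that was alike for all arrays, with no shift between slides. Its counts therefore do not describe the recovery in these data, where each genotype lay on a slide of its own. Python 3.11.15, pandas 2.3.3 and numpy 2.4.6 did the rest. Values count as moved past a shift of 0.152, and counts past a factor of 1.5. Alternatives were 4 other scalings, other limits, no filter and leaving out a knockout.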

Additional observations from a re-analysis of the deposited data

Results flagged for a closer look

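For 3 members the 3-h light change was above 0.152 (the spread of a ratio between spots) in WT larvae and below minus that value in both knockouts. It was 0.23 for A_15_P681666, 0.67 for A_15_P678565 and 0.28 for bmpr1ba in WT larvae. In the knockouts the change was -1.09 in DKO and -1.0 in TKO for A_15_P681666, -0.75 in DKO and -0.28 in TKO for A_15_P678565, and -0.57 in DKO and -0.39 in TKO for bmpr1ba. With 1 array per group the difference between genotypes was not tested. The 3-h light change shares its dark array with the change that chose the members, so its direction is not free of the rule. A_15_P678565 and bmpr1ba are dim, with mean levels of -4.78 and -5.84, and the spread among probes under -4 was 0.242. The scanner errors of these changes were 0.23 in WT, 0.29 in DKO and 0.24 in TKO for A_15_P678565. For bmpr1ba they were 0.39 in WT, 0.42 in DKO and 0.31 in TKO. The other bmpr1ba probes changed at 3-h light by 0.12, 0.47 and 0.19 in WT larvae. In the same order they changed by 0.03, 0.0 and -0.01 in DKO and by 0.05, 0.15 and 0.19 in TKO larvae.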

How the results depend on the processing

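No paired analysis was possible because the labels give no replicate numbers and each group has 1 array. The count of 56 members became 38 with quantile normalization (28 shared), 61 with median scaling (47 shared) and 45 with the deposited table (44 shared). It was 11 with normexp background correction (offset 50) and quantile normalization, 8 of them shared, a setting that changes the background correction and the normalization together. In all 5 scalings 6 members held, which were hspb9, hspb9l, ifi27.1, A_15_P681666, A_15_P683191 and A_15_P187211, and 23 held without normexp. The gene of the largest WT change, zdhhc20a, did not meet the rule with the deposited table, although its WT change there was 3.89. Its TKO change was 0.13 with the 75th percentile, under the limit of 0.2. The deposited table shifts all TKO changes at 12-h light alike, with a median over all probes of 0.25 against 0.15. The count was 228 with a WT limit of 0.5, 10 with a limit of 1, 19 with a knockout limit of 0 and 123 with 0.4. Without the filter and with dim signals raised, which are changed together in that setting, it was 124. It was 115 without the TKO arrays, 189 without the DKO arrays and 85 with DKO dark as the reference of TKO. It was 53 at 3-h light, 6 of them shared. After seeing the data, members were also split by brightness, which gave 14 at a level of -4 or more and 8 at -2 or more. In those 8 the median 3-h light change was -0.29 in DKO, -0.92 in TKO and 0.07 in WT larvae, and the dark difference from WT was 0.78 in DKO and 1.21 in TKO. Under normexp the median 3-h light change of the members was 0.07 in WT larvae, and the dark difference from WT was 0.08 in DKO and 0.12 in TKO. Of 108 WT changes of single genes under the 4 other scalings, none turned direction and 38 moved, 25 of them under normexp and 13 under quantile normalization. Median scaling and the deposited table each shift every WT change by 1 common amount, which was too small to move or turn any. Only normexp and quantile normalization could therefore move a single gene, and the offset of normexp by itself shrinks the changes of dim genes. For the 3-h light arrays limma called 0 probes with the 75th percentile, quantile normalization, the deposited table and no filter, but 989 with median scaling, 846 with normexp and 2930 with the trend and robust options. The causes of these differences were not tested. Median scaling called 1 member, A_15_P569107, lower in the knockouts, and normexp called hspb9 and A_15_P683191 higher. Signals of dim members near 20 units on a single array limit all of these values.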
